A study of Drosophila melanogaster with 3 samples.

Results

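The genes described here encode the eukaryotic translation initiation factors of Drosophila melanogaster. They were chosen as the protein-coding genes of the dm6 annotation whose symbol starts with eIF, 44 of 13968. Chromatin immunoprecipitation and sequencing (ChIP-seq) had been carried out with an anti-GFP antibody on whole embryos, males and females pooled, of 0 to 24 h. The flies stably express a transgene of CG10209 with GFP at its C-terminus, and all samples carry it. The series holds 1 group of 3 biological replicates and no second condition, so no difference between conditions could be tested. The endogenous CG10209 gene, the tissues in which the transgene is active and the share of embryos at each age are not described in the labels. No expression was measured, so the cell types in these whole embryos were not checked against markers.

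Translation initiation brings the small ribosomal subunit, the initiator tRNA and an mRNA together and then joins the large subunit. eIF4 factors recognise and unwind the capped mRNA end, eIF3 is the scaffold on the small subunit, and eIF2 delivers the initiator tRNA. eIF1 and eIF1A act in the choice of the start codon, and eIF5B joins the subunits. The early fly embryo lives on maternal mRNAs, whose translation is controlled largely at this step.

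Region lists of 2 kinds were read. The peak list holds the 6307 peaks left after the authors applied the irreproducible discovery rate (IDR), which compares ranks between replicates. The others, 1 for each replicate and 1 for the pooled replicates, hold 30000 regions each and include background. The signal value of a region is the authors' own, on a scale that differs between the lists, so replicates are compared by rank within their list. All lists were called against the same control, no untagged or mock sample was analysed here, and read depth is unknown. Replicate 1 had 4296 regions with a −log10 q of 2 or more, against 9183 in replicate 2 and 9015 in replicate 3. A gene is said to have a promoter peak where a summit of the peak list lies within 500 bp of one of its annotated transcript starts.

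Of the 44 eIF genes, 13 had a promoter peak (29.5%), against 21.5% of all protein-coding genes. They were eIF1, eIF2A, eIF2D, eIF3a, eIF3b, eIF3c, eIF3h, eIF3m, eIF4A, eIF4EHP, eIF4G2, eIF5B and eIF6. Their highest peaks ran from 205.1 to 3045 in signal value, with a median of 349.2, against a median of 420.2 over all 3004 coding genes with such a peak. The eIF median was 572.5 without replicate 1 and 1351 without replicate 2 or 3 when peaks had to recur in both replicates left. The median over all coding genes was not computed under that rule, so these values cannot be set against 420.2. A further 8 members had a region in the pooled list that was not kept as a peak, so that 21 of 44 (47.7%) had a pooled region, against 43.4% of coding genes. Another 10 had regions in replicate lists alone, and 13 (29.5%) had no region within 500 bp of a start in any of the 5 lists, against 36.0% of coding genes. Under a stricter rule, a peak counted where regions among the 6307 of highest rank overlapped it in both of 2 replicates. By that rule 11 eIF genes had one without replicate 1, but 5 without replicate 2 and 5 without replicate 3. The coding genes that had one came to 17.7%, 15.2% and 14.3% in the same order, so the share of eIF genes lay above or below that of coding genes depending on the replicates used.

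**Figure D1:**
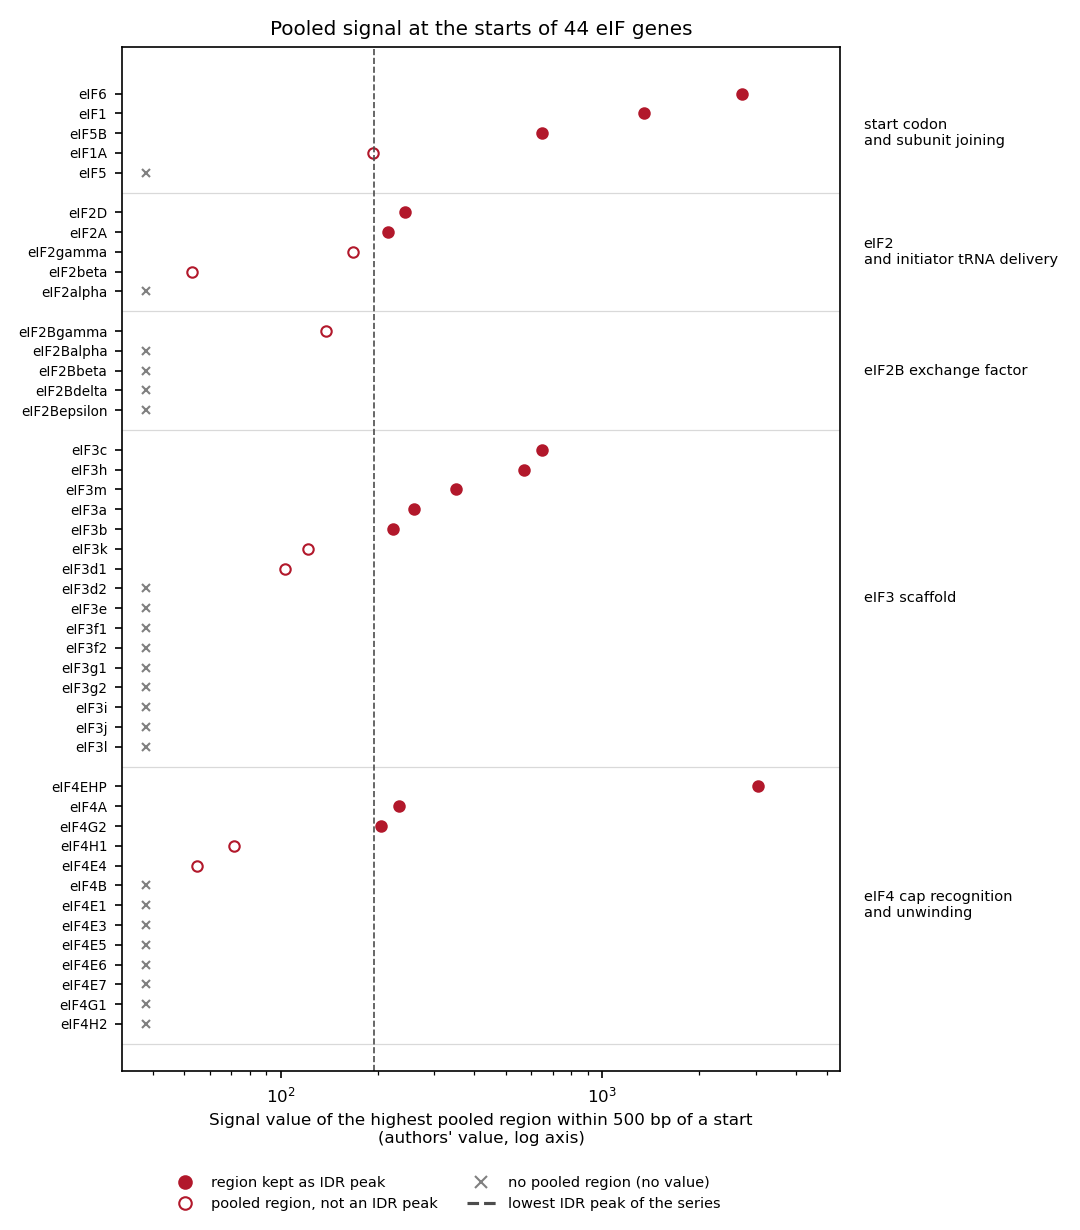
Signal value (x axis, the authors' unit, log scale) of the highest pooled region within 500 bp of a start for each of the 44 eIF genes, grouped by role. Filled points are the 13 genes whose region was kept as a peak, open points the 8 with a pooled region alone and crosses the genes with none. The dashed line is the lowest peak of the series at 194.7, and eIF1A lies next to it at 193.9.

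The factors of start codon choice and subunit joining, a small group, included 3 genes with a promoter peak out of 5, against 21.5% of all coding genes. eIF1, the factor that guards start codon choice, lies head to head with RpL28, a gene of a large-subunit ribosomal protein. Between them were 2 peaks. The higher one (chr3L:3222852-3223176, signal 1351, rank 296) had its summit at -59 bp from the start of RpL28 and -322 bp from that of eIF1, negative values being upstream. The lower one (chr3L:3223212-3223364, signal 396.6, rank 2562) was nearer to eIF1, 122 bp upstream of its start. The highest region at eIF1 had signals of 550.4 in replicate 1, 339.9 in replicate 2 and 456.7 in replicate 3, at ranks 211, 390 and 401. The lower peak overlapped no region of replicate 1 and had best ranks of 3592 and 2878 in replicates 2 and 3. The higher peak therefore recurred in all replicates and the one next to eIF1 in 2 of them. The sequence between the genes at both summits is printed on the plus strand, the strand of eIF1. Capitals mark TATCGATA, the DNA replication-related element (DRE), and TATAAA on either strand. The stretches share the base at which they meet, and both leave out exons.
eIF1 higher peak, chr3L:3222961-3223119: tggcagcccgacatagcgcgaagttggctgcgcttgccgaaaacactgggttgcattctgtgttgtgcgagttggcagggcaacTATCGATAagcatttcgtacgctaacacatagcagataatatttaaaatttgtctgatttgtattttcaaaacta
eIF1 lower peak, chr3L:3223119-3223319: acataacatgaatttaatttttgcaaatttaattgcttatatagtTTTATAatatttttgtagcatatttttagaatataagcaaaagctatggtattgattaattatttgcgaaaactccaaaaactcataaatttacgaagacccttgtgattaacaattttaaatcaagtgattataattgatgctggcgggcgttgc

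The DRE in the first stretch is centred 29 bp from the summit on the eIF1 side. The second stretch has no DRE and is richer in A and T, at 74.1% against 56.6% in the first.

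eIF5B, the GTPase that joins the subunits, had a peak at chr3L:3460704-3460874 with signal 647 and rank 1215. Its signals were 243.3 in replicate 1, 174.7 in replicate 2 and 217.6 in replicate 3, at ranks 1002, 1354 and 1513. The region was thus found at similar ranks in all replicates. The summit lay in a non-coding exon, 161 bp upstream of the inner of the 2 annotated starts. No other gene starts within 500 bp of it.

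eIF6 binds the large subunit and keeps it from joining too early. Its gene (FBgn0034915, 2R, 23849246 to 23850301, minus strand) had a peak at 23850215 to 23850587, with a signal of 2714 and rank 46. Its signals were 1059 in replicate 1, 639.6 in replicate 2 and 1037 in replicate 3, at ranks 37, 80 and 52. All 3 replicates thus placed it among their first 100 regions. The summit lay 103 bp upstream of the eIF6 start, in an intron of ytr and an exon of the antisense RNA gene asRNA:CR45928, whose start is nearer at 74 bp.

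eIF1A, the partner of eIF1, had a pooled region at chr3R:18274307-18274750 with a signal of 193.9 and rank 6333, next to the lowest peak of the series at 194.7. Just inside that limit among the family lay eIF4G2 (205.1) and eIF2A (215). The best ranks at eIF1A were 7395, 6497 and 9131 in replicates 1, 2 and 3, so no replicate had it among its first 6307. eIF5, which makes eIF2 hydrolyse its GTP, had no pooled region and ranks of 6697 and 10530 in replicates 2 and 3.

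The eIF2 group delivers the initiator tRNA, and its 3 core subunits had no promoter peak, where 21.5% of all coding genes had one. Of these, eIF2gamma, the GTP-binding subunit, came nearest. Its pooled region had a signal of 167.6 and rank 7525, with ranks of 4958 in replicate 2 and 10576 in replicate 3 and no region in replicate 1. eIF2beta had a pooled region of rank 29995, near the end of the list, and eIF2alpha, the subunit phosphorylated under stress, had a region in replicate 2 alone, at rank 12772. The 2 peaks of this group lay at genes of factors that deliver initiator or other tRNAs outside the main pathway in mammals. eIF2D had a peak of signal 244 and rank 4869 (chr3R:29151739-29152182), with ranks of 4971 and 4124 in replicates 2 and 3. eIF2A had one of signal 215 and rank 5649 (chr3L:21824685-21825128), with ranks of 5004 and 4292. Neither had a region in replicate 1.

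eIF2B reloads eIF2 with GTP, and 0 of its 5 subunit genes had a promoter peak. eIF2Bgamma had a pooled region of signal 138.2 and rank 9383, found in all 3 replicates at ranks 15258, 8457 and 15492. eIF2Bdelta ranked 3625 in replicate 2 and 8294 in replicate 3, and had no pooled region. eIF2Bepsilon ranked 10799 and 11748 in the same replicates, eIF2Bbeta ranked 23537 in replicate 2 alone, and eIF2Balpha had no region. The eIF2Bbeta start is 691 bp from the summit of the second-highest peak of the series (signal 6382), which is 28 bp from the start of the neighbouring gene Ugalt. With a 1000 bp window that peak, and one of signal 204.1 that is 797 bp from eIF2Bdelta, counted for these 2 genes. The family's total then became 15, and the share of coding genes rose from 21.5% to 25.1%.

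eIF3, the scaffold on the small subunit, had a promoter peak at 5 of its 16 genes (31.2%), against 21.5% of all coding genes. eIF3h, a subunit of the outer part of the complex, had 2 peaks. The higher (chr2L:5052355-5052575, signal 572.5, rank 1464) had its summit in an intron, 290 bp downstream of the inner start. The other (chr2L:5052707-5052906, signal 415.7, rank 2398) lay 12 bp downstream of that start and 75 bp upstream of senju, which runs the other way. The highest region at eIF3h had signals of 158.9, 176.2 and 262.5 in replicates 1, 2 and 3, at ranks 1864, 1333 and 1125. All replicates placed it within their first 2000 regions, downstream of the start. The 201 bases around the intronic summit, on the minus strand, are shown because this was the family's only highest peak downstream of its start. None of the 6 words searched occurs in them.
eIF3h intronic peak, chr2L:5052390-5052590: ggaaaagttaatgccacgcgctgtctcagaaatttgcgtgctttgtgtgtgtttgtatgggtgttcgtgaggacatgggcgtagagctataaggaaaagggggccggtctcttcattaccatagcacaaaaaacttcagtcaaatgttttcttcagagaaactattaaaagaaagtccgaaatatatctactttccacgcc

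eIF3c, a core subunit, had the highest peak of the eIF3 genes (2R, 17665562 to 17665771, signal 651.3, rank 1198), with its summit 2 bp from a start. It ranked 1675 in replicate 2 and 1695 in replicate 3, with signals of 156.6 and 203.6. Replicate 1 had no region there. Of 111 coding genes whose highest promoter peak lay within 100 ranks of that of eIF3c, itself included, 14 (12.6%) had no replicate 1 region, a comparison chosen after the eIF3c values were seen.

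The other eIF3 peaks were lower. Those at the core subunit genes eIF3a and eIF3b had signals of 259.4 (rank 4482) and 223.3 (rank 5416), and that at eIF3m had 349.2 (rank 3047). Ranks in replicates 2 and 3 were 3626 and 3665 at eIF3a, 2856 and 5545 at eIF3b, and 3952 and 4288 at eIF3m. Replicate 1 had no region at any of the 3 genes. The eIF3a summit lay between diverging starts, at -28 bp from that of eIF3a and -42 bp from that of CG1074. The eIF3m summit lay between eIF3m at -56 bp and CG8323 at -170 bp. Among the rest, eIF3k (signal 121, rank 10893) and eIF3d1 (102.8, rank 13023) had pooled regions below the peak list. eIF3f1, eIF3i and eIF3j had regions in replicates alone, at ranks of 8222 to 25827. eIF3d2, eIF3e, eIF3f2, eIF3g1, eIF3g2 and eIF3l had none. In the pairs of duplicated genes, eIF3d1 and eIF3f1 had regions where eIF3d2 and eIF3f2 had none, and neither eIF3g1 nor eIF3g2 had any.

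The eIF4 factors recognise the mRNA cap, and their genes held the highest peak of the family. Of the 13, 3 had a promoter peak (23.1%), close to the 21.5% of all coding genes. No region in any list was found at 6 of them (46.2%, against 36.0% of all coding genes). eIF4EHP encodes a cap-binding protein that represses mRNAs in the fly embryo, among them caudal. Its gene (FBgn0053100, 3R, 24063077 to 24108960, minus strand) had a peak at 24108919 to 24109422 with signal 3045 and rank 35 of 6307. The signals were 1115 in replicate 1, 780.4 in replicate 2 and 1153 in replicate 3, and the ranks 29, 44 and 41. All replicates thus placed it among their first 50 regions. The summit lay between 2 genes that run apart, at -228 bp from the start of eIF4EHP and -148 bp from that of CG18428, so the nearer start is not that of eIF4EHP. The sequence at the summit is printed on the minus strand because it is the family's highest peak. Capitals mark TATAAA on either strand, and A and T make up 79.6% of it.
eIF4EHP peak, chr3R:24109088-24109288: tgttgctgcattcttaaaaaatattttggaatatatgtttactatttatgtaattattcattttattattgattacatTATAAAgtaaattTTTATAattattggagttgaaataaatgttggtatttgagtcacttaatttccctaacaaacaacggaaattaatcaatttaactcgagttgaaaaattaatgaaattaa

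The 6 other eIF4E genes code for cap-binding proteins of the same kind, eIF4E1 being the main one of the fly. Of these 6, 5 had no region in any list, where 36.0% of all coding genes had none. They were eIF4E1 with its 4 annotated starts, eIF4E3, eIF4E5, eIF4E6 and eIF4E7. The number of genes is small and the difference was not tested. eIF4E4 had a region of signal 54.8 and rank 28614 in the pooled list and of rank 12850 in replicate 1. The peak nearest to eIF4E1 was 4474 bp from its starts.

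eIF4A, the RNA helicase, had a peak at chr2L:5982291-5982734 with signal 232.6 and rank 5181. Regions overlapping it ranked 2489 in replicate 2 and 9292 in replicate 3, with none in replicate 1, and its summit lay 81 bp upstream of an inner start. At the outermost start of eIF4A a further pooled region had a signal of 180.6 and rank 6880, and was not kept as a peak. eIF4G2, a scaffold protein used in spermatogenesis, had a peak of signal 205.1 and rank 5948, with ranks of 4058 and 6423 in replicates 2 and 3 and no region in replicate 1. Its summit lay 55 bp upstream of a start shared with CG33111, inside an intron of CG34355, so the 2 genes cannot be told apart there. eIF4G1, the general scaffold, lies on chromosome 4 and had a region in replicate 2 alone, at rank 19849. Among the helicase partners, eIF4H1 had a pooled region of signal 71.1 and rank 20514, eIF4B had a region in replicate 1 alone at rank 13234, and eIF4H2 had none.

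Members with a promoter peak differed in how many replicates held them. eIF1, eIF3h, eIF4EHP, eIF5B and eIF6 had a region among the first 6307 in each replicate, 5 of the 13 genes with a promoter peak (38.5%), against 63.6% of the 3004 coding genes with one. The other 8 had regions in replicates 2 and 3 and none in replicate 1, which makes 61.5% against 21.1% of the 3004. These 8 had signals of 205.1 to 651.3, a range that also holds eIF3h and eIF5B. Of the 2048 coding genes with a highest peak in that range, 557 (27.2%) had no replicate 1 region, as had 8 of the 10 eIF genes in it. This comparison was chosen after the values were seen. The 8 genes set the range and so all lie in it by construction, and the eIF share is not a fair match for the 27.2%. Counted without the peak list, 5 of 44 eIF genes (11.4%) had a region among the first 6307 in replicate 1, 15 (34.1%) in replicate 2 and 11 (25%) in replicate 3. The shares of all coding genes were 17.8%, 23.3% and 21.4%. Regions in all 3 replicate lists, of any rank, were present at 7 eIF genes (15.9%) and 22.9% of coding genes. These differences were not tested, and the part that the smaller number of called regions in replicate 1 plays in them was not tested.

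**Figure D2:**
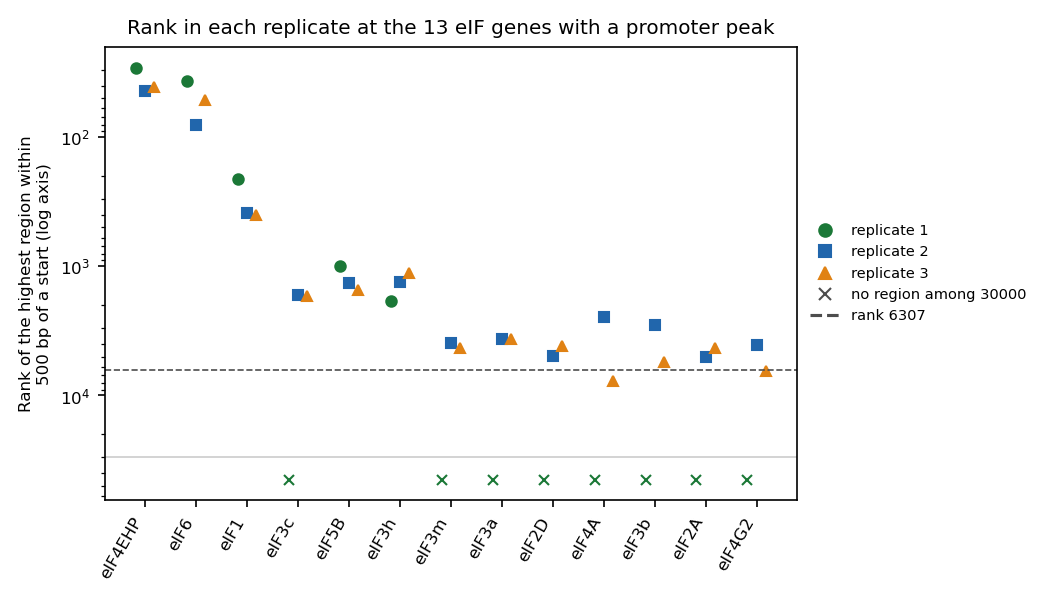
Rank (y axis, log scale, strongest at the top) of the highest region within 500 bp of a start in each of the 3 replicate lists, for the 13 eIF genes with a promoter peak, ordered by rank in the peak list. Crosses mark replicate lists with no region, all of them in replicate 1, where 8 genes lack one, and the dashed line is rank 6307.

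The highest peak was upstream of the nearest own start at 12 of the 13 genes (92.3%), against 88.0% of the 3004, with eIF3h as the exception. At eIF2A, eIF3b, eIF4A and eIF5B that start is an inner one, and the summit lies in a non-coding exon downstream of the outermost start. The median position was -58 bp, against -145 bp. In the replicates the median at these genes was -151 bp in replicate 1, -48 bp in replicate 2 and -50 bp in replicate 3 (SD of the 3 medians 58.9 bp). Replicate 1 had regions at 5 of the genes and replicates 2 and 3 at all 13. The SD therefore mixes different sets of genes and is not a spread between replicates over the same genes. In replicate 2 the highest regions at eIF2D and eIF3a had summits 22 and 27 bp downstream of a start. The upstream position there did not hold in every replicate. Leaving out replicate 2 or 3 also moved the median to -161 bp, over the 5 genes then left.

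**Figure D3:**
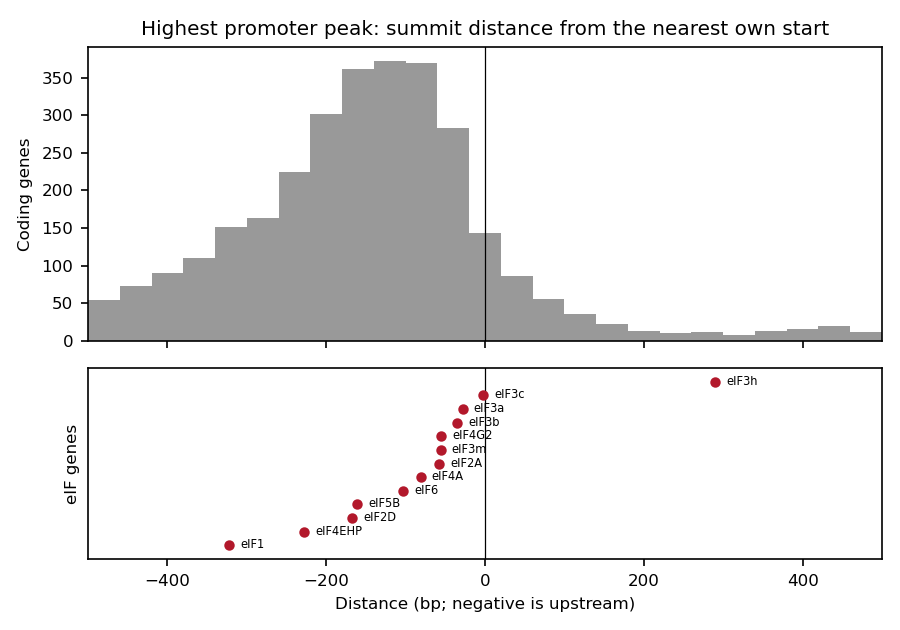
Distance in bp of the summit of a gene's highest promoter peak from its nearest own start, negative upstream. The upper panel counts all 3004 coding genes with a promoter peak in bins of distance and the lower panel shows the 13 eIF genes as points, with a median of -58 bp and 1 gene, eIF3h, well downstream at 290 bp.

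Many eIF starts are near those of other genes. At 8 of the 13 genes (61.5%) another gene started within 500 bp of the summit of the highest peak, against 58.4% of the 3004. When a peak was given to its nearest gene and no other, 11 of 44 eIF genes kept one (16.2% of coding genes did), and eIF4EHP and eIF6, the highest of the family, lost theirs. The median signal over the family then fell from 349.2 to 259.4. A protein-coding gene running the other way started within 500 bp upstream of 7 of the 13 genes (53.8%) and of 11 of the other 31 (35.5%). The shares over all coding genes were 51.2% and 20.8%. Genes with several annotated starts had peaks more often, at 8 of 15 eIF genes (53.3%) against 5 of 29 with 1 start (17.2%). Over all coding genes these shares were 36.8% and 16.0%. A peak counted at any start, so each further start widened the stretch searched and raised the share partly by construction. By chromosome arm, promoter peaks were at 0 of 7 members on X, 2 of 3 on 2L and 4 of 9 on 2R. On 3L, 3R and 4 they were at 3 of 11, 4 of 13 and 0 of 1. The shares of coding genes were 21.2%, 21.5%, 19.5%, 22.8%, 22.8% and 10% in the same order. These counts are small and were not tested.

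The 31 members with no promoter peak had a median distance of 11922 bp to the closest peak summit. The distance was over 10000 bp for 16 of them and 591056 bp for eIF4B. eIF2Bgamma, eIF3d1 and eIF3g1 had peaks of neighbouring genes at 1278, 1316 and 1377 bp. These distances were not computed over all coding genes with no promoter peak. They are therefore not shown to be particular to the family.

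Sequence words were counted within 100 bp of the 15 summits at eIF genes, on both strands, and compared with the 2516 promoter peaks of all coding genes. The DRE, the site of the factor Dref at many housekeeping promoters, occurred at 4 of 15 (26.7%), against 5.76% of the 2516. The 4 were at eIF1, eIF2A, eIF3a and eIF6. At eIF1 and eIF6 the summit was nearer to the start of another gene, RpL28 and asRNA:CR45928. The eIF3a summit also lay at -42 bp from the start of CG1074. TATAAA, the core of the TATA box, occurred at 6 of 15 (40%) against 38%. GGTCACACT, the core promoter motif known as motif 1, occurred at 0 of 15 against 3.30%, and CACTGAGA (1.55%), CACTGTGC (3.78%) and TACACTGA (1.63%) also at 0. CACTGAGA and TACACTGA can overlap by 6 bases. A and T made up a median of 58.2% of bases around the eIF summits, with a range of 44.3% to 79.6%, against 65.2% over the 2516. The DRE, which reads the same on both strands, is printed below in capitals with 11 bases on either side, on the strand of the eIF gene, for 2 members besides eIF1 because this word stood out by count.
eIF2A, chr3L:21824865-21824894, plus strand: ttactatcgctTATCGATAcaccgcgtaca
eIF3a, chr3R:4433915-4433944, minus strand: tcggcctgaacTATCGATAacgcagccagg

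The word is centred 86 bp upstream of a start of eIF2A and 35 bp upstream of that of eIF3a, and 28 and 7 bp from the 2 summits. At eIF1 its centre is at -293 bp from the start. The counts are small and a match is a description of the letters. CTTT with its C at an annotated start or within 2 bp of it, on the strand of the gene, is the core of the TCT initiator known from ribosomal protein genes. It was found at 1 of 44 eIF genes, eIF3m, against 3.27% of coding genes and 20 of 93 ribosomal protein genes (21.5%).

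Other translation genes were counted in the same way. Of 21 genes that act in initiation under other names, 9 had a promoter peak (42.9%). The highest was larp, whose product binds mRNAs of the translation machinery, with signal 3082 and rank 34 and ranks of 46, 41 and 31 in replicates 1, 2 and 3. mTor, the growth kinase upstream, had 654.3, with another gene's start nearer. Thor, the eIF4E-binding repressor, had 478.3, pix, a ribosome recycling factor, 409.3, and Gcn2, an eIF2alpha kinase, 353.9, again with another start nearer. The ribosomal S6 kinase gene S6k had 249.1, crc (ATF4) 247.3, the eIF4E kinase gene Lk6 221.5, and Pdcd4, an inhibitor of eIF4A, 217.1, with another start nearer. mxt, cup, 4E-T, NAT1, pAbp, Paip2, bel, DENR, MCTS1, PEK, PPP1R15 and me31B had none. When peaks had to recur in the 2 replicates left, 8 remained without replicate 1, 5 without replicate 2 and 6 without replicate 3. The shares of all coding genes were then 17.7%, 15.2% and 14.3%. Of the 10 elongation and release factor genes, 6 had one, with a median signal of 633, and of 93 cytoplasmic ribosomal protein genes 72 (77.4%), with a median of 647.3. The eIF share of 29.5% lay between those of these lists and the 21.5% of all coding genes. This difference was not tested.

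**Figure D4:**
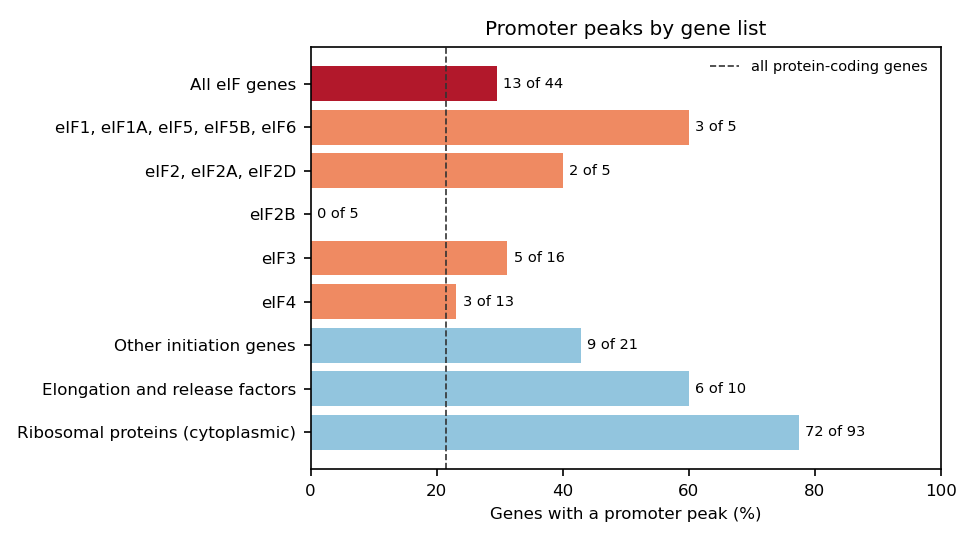
Share of genes (x axis, percent) with a promoter peak in the eIF family, in its groups by role and in 3 other translation lists, with the number of genes beside each bar. The dashed line is the share of all protein-coding genes, 21.5%, and the bars run from 0 of 5 eIF2B genes to 72 of 93 ribosomal protein genes.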

How the data were processed

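Region lists in narrowPeak layout with dm6 coordinates were used. The authors, per their deposited text files, called regions on each replicate and on the pooled replicates against 1 common control alignment, and derived the IDR peaks from these lists. The signal values and −log10 q values are the authors' as deposited. No source used here names the aligner, the peak caller, the signal scale or the cut-off of IDR. The lists give no read counts, so depth and counting error are unknown. Per the labels, chromatin was sonicated to 200 to 800 bp.

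Starts came from the Ensembl 115 annotation (18277 genes of the chromosome arms, transposons left out) and sequence from RefSeq's Release 6 genome. Coordinates are 1-based. A gene's value is its highest region with a summit within 500 bp of any transcript start, and ranks are by signal within a list. Windows, start definitions, peak subsets and the omission of replicates were varied. IDR was not rerun. The assignment of regions to genes was tested on simulated data. With 1 group, counts are given beside those of all coding genes, with no p-values. Larp and Tor of the initiation list matched by synonym (larp, mTor). Sequences were printed at the 4 highest members outside 2R, without exons, except eIF5B, whose summit is exonic. The 2 short stretches at eIF2A and eIF3a were chosen after the counts were seen. Members, lists and words were chosen with earlier results of these data known. Every eIF member is named. Lists with dm3 coordinates were not used here. Python 3.11.15, numpy 2.4.6, pandas 2.3.3 and matplotlib 3.10.9 were used.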

Additional observations from a re-analysis of the deposited data

How the results depend on the processing

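The count of 13 eIF genes was 13 with a 250 bp window, 15 with 1000 bp, 11 by nearest start, 12 with the outermost start alone and 12 when the peak interval had to cover a start. Beside these counts out of 44, the shares of coding genes were 16.8%, 25.1%, 16.2%, 19% and 13.5% in the same order. The eIF count was 7 with the 3153 peaks of highest signal, which removes the lower peaks by construction, against 13.5% of coding genes. It was 5 to 11 when a replicate was left out, against 14.3% to 17.7% of coding genes. The median signal of 349.2 became 259.4 by nearest start, 382.4 with the outermost start, 304.3 by interval, 651.3 with the 3153 highest peaks and 572.5 to 1351 without a replicate. The median position of -58 bp ranged from -161 to -58 bp without a replicate. The initiation list of 9 had 5 with the 3153 highest peaks and 5 to 8 without a replicate. With the first 3153 regions in place of 6307, 8 eIF genes had one in replicate 2 (from 15), against 13% of coding genes. In replicate 3 the count was 6 (from 11), against 13.2%, and in replicate 1 it stayed at 5, against 12.7%. Of 40 alternative values, 24 were labelled the same and 16 moved. A count was labelled the same up to a 1.5-fold change, so not all of the 24 were near the main value. The initiation list of 12 at 1000 bp, from 9, was among the 24, and the median signal of 382.4 was among the 16. Without replicate 2 or 3 the rule required a replicate 1 region, so the 8 eIF genes with none were lost by construction in both cases. By nearest start the genes lost were eIF4EHP and eIF6. Apart from these and the 3153 peaks, the cause was not tested. No paired analysis was possible because there is 1 group. Low regions are limited by the unknown depth and by the fixed length of 30000 regions per list, so a gene with no region is not shown to be unbound.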
